A study of Mus musculus with 2 samples.

Results

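The 8 noncoding RNAs described here were chosen by symbol from the 32286 features measured in single mouse lung endothelial cells: Malat1, Neat1, Gm20631, 4930444A19Rik, 4930549C15Rik, Gm42418, AY036118 and Fendrr. Each symbol matched 1 feature, so 8 of 8 were found. They were picked because several of them were among the features with the largest differences between the 2 libraries of the series, so their differences between the libraries are given as a description and carry no test. Whole cells were sequenced, so the counts do not separate nucleus from cytoplasm, and the word nuclear below is background from the literature and not a measurement.

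Malat1 and Neat1 are abundant long noncoding RNAs kept in the nucleus, Malat1 in splicing-factor speckles and Neat1 as the scaffold of paraspeckles. Malat1 ends without a poly(A) tail after a small tRNA-like piece is cut away, and next to that cut lies a genome-encoded run of A. Fendrr is transcribed away from the neighbouring transcription factor gene Foxf1, and mice without Fendrr have heart, body wall and lung defects. Gm20631, 4930444A19Rik and 4930549C15Rik are annotated as antisense RNAs, each lying inside a protein-coding gene on the other strand, and no function is given for them here. Gm42418 and AY036118 are annotated as long noncoding RNAs but lie on a ribosomal RNA copy, so counts given to them may come from ribosomal RNA.

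In the GENCODE M21 annotation of mm10, Malat1 (ENSMUSG00000092341) spans chr19:5795690-5802672 on the minus strand and Neat1 (ENSMUSG00000092274) spans chr19:5824708-5845478, also minus. Gm20631 (ENSMUSG00000093650, chr1:150625266-150783499, plus) lies wholly within Hmcn1. 4930444A19Rik (ENSMUSG00000101674, chr1:54681729-54767524, plus) lies wholly within Ankrd44. 4930549C15Rik (ENSMUSG00000114048, chr12:26346717-26371748, plus) lies wholly within Rnf144a. Of the exonic bases of these antisense RNAs, 5.83% of Gm20631, 14.0% of 4930444A19Rik and 0% of 4930549C15Rik overlap exons of the host, so most of their exonic sequence is host intron on the other strand. Gm42418 (ENSMUSG00000098178, chr17:39846958-39848788, plus) and AY036118 (ENSMUSG00000105361, chr17:39847113-39848035, minus) both lie on an annotated ribosomal RNA gene, and AY036118 is the reverse complement of bases 156 to 1078 of Gm42418. Fendrr (ENSMUSG00000097336, chr8:121054882-121083110, minus) starts 1275 bases from Foxf1.

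The 3′ ends are shown because the assay primes on runs of A, such as a poly(A) tail. They are the last 60 bases of 1 annotated transcript of each RNA but Malat1, with the polyadenylation signals AATAAA and ATTAAA in capitals, and for Malat1 the 60 bases around its run of A, with that run of 12 A in capitals. All are GENCODE M21 transcript sequence on mm10, written 5′ to 3′ along the RNA.
Gm20631 (chr1:150668416-150668475, plus strand): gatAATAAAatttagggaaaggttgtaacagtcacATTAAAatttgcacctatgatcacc
4930444A19Rik (chr1:54767465-54767524, plus strand): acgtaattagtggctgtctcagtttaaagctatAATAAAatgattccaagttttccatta
4930549C15Rik (chr12:26371689-26371748, plus strand): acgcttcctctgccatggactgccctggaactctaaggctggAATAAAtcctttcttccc
Gm42418 (chr17:39848729-39848788, plus strand): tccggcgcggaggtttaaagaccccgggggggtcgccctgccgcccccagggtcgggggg
AY036118 (chr17:39847113-39847172, minus strand): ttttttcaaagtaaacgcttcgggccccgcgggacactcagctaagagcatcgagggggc
Neat1 short transcript (chr19:5842307-5842366, minus strand): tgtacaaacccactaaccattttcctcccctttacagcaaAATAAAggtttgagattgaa
Fendrr (chr8:121054882-121054941, minus strand): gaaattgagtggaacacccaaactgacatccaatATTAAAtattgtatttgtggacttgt
Malat1 run of A (chr19:5795964-5796023, minus strand): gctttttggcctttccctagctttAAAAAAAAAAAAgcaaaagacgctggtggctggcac

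The antisense RNAs and the short Neat1 transcript hold AATAAA near the end, as do the last 60 bases of Malat1, and Fendrr holds ATTAAA. Gm42418 and AY036118 hold neither in the window, and the end of Gm42418 is 78.3% G and C. Searched on the transcript strand alone, AATAAA was present in the last 60 bases of 49.0% and ATTAAA of 15.2% of 32070 annotated transcripts, and a run of 12 A anywhere in 7.66% of them. A match or its absence describes these letters and says nothing about where reads began.

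The cells came from lungs of C57BL/6J mice aged 10 to 12 weeks that carried VE-cadherin-cre, a Cre transgene active in endothelium, and the fluorescent lineage reporter tdTomato. The series title places them in a model of hereditary hemorrhagic telangiectasia 2. Lungs were dissociated with dispase, tdTomato-positive cells were sorted, and 1 library labelled aKO and 1 labelled aWT were made with the 10x Genomics 3′ v3 kit, which counts molecules through unique molecular identifiers (UMIs). Both libraries share strain, age, driver, reporter and sort, and the labels name no deleted gene, no sex and no number of animals.

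The matrices held 11045 barcodes and 75950364 UMIs for aKO, and 15996 barcodes and 72270260 UMIs for aWT. With at least 500 genes, at most 15% mitochondrial UMIs and doublet calls removed, 10308 aKO and 14678 aWT barcodes counted as endothelial by their marker UMIs (99.0% and 98.7% of those kept). Each of the 10 pan-endothelial markers was detected in both libraries, summing to 13080 CPM in aKO and 16214 CPM in aWT endothelial barcodes. There, 8 immune markers summed to 39.4 CPM in aKO and 75.6 CPM in aWT and 8 alveolar type 2 markers to 17.9 CPM in aKO and 190 CPM in aWT, led in aWT by the surfactant gene Sftpc, and no marker of either list was at 0. Without the barcodes that held an alveolar type 2 UMI, the log2 ratios were -2.70 for Gm20631, -2.92 for 4930444A19Rik, -1.99 for Gm42418 and -2.48 for AY036118, close to those over all endothelial barcodes given below. The part of the immune markers was not tested. The libraries differed in depth (median 5761 UMIs in aKO and 3894 in aWT), in mitochondrial share (median 1.67% in aKO and 2.35% in aWT) and in class mix, and 48 barcode sequences occurred in both. Library, label, depth, mitochondrial share and handling cannot be told apart at the level of whole libraries, since each group is 1 library. No difference between them was tested, and the ranges in brackets are exact 95% intervals that cover counting error only.

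Classes were set per barcode from UMIs of marker lists that hold none of the 8 RNAs. A barcode joined a class with at least 3 UMIs over at least 2 markers and at least 2 times the UMIs of every other class. General capillary cells, the progenitor-like capillary cells of the alveolus, numbered 4448 in aKO and 8774 in aWT. Aerocytes, the gas-exchange capillary cells, numbered 1089 in aKO and 2179 in aWT. There were 412 arterial, 877 venous and 1656 lymphatic barcodes in aKO, against 599, 737 and 516 in aWT, and 1826 in aKO and 1873 in aWT stayed unresolved. Between 1.5 and 3 times the next class, and so near the cut, lay 16.6% of aKO and 14.6% of aWT barcodes. The markers themselves differed between libraries within a class: in general capillary barcodes, general capillary markers summed to 8158 CPM in aKO and 12242 CPM in aWT, and aerocyte markers to 1048 CPM in aKO and 375 CPM in aWT.

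Over all endothelial barcodes, the ribosomal-overlap RNAs and 2 antisense RNAs were far lower in aKO, Malat1 and 4930549C15Rik were moderately lower, Fendrr was near equal and Neat1 was moderately higher. Levels (CPM) are UMIs of the gene scaled to 1000000 UMIs of the class. A log2 ratio divides the aKO level by the aWT level, with 5 CPM put on both, so that it understates differences of low genes. Of the 7 RNAs with at least 50 CPM in 1 library, 4 were at least 2-fold lower and 0 at least 2-fold higher in aKO. Among all 4590 features at that level, 3.25% were at least 2-fold lower and 4.58% at least 2-fold higher. The RNAs were chosen from this same contrast, so nothing is read from that difference. By class, 4 of 7 were at least 2-fold lower in general capillary cells (background 3.14%), 3 of 6 in aerocytes (1.92%), 2 of 5 in arterial cells (3.34%), 3 of 6 in venous cells (3.89%) and 2 of 4 in lymphatic cells (1.59%). None was at least 2-fold higher in any of these classes, where the backgrounds of higher features were 3.82%, 2.47%, 4.03%, 4.76% and 1.21% in the same order. The median log2 ratio was -1.31 over the 8 RNAs and 0.07 over all features at that level.

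**Figure D1:**
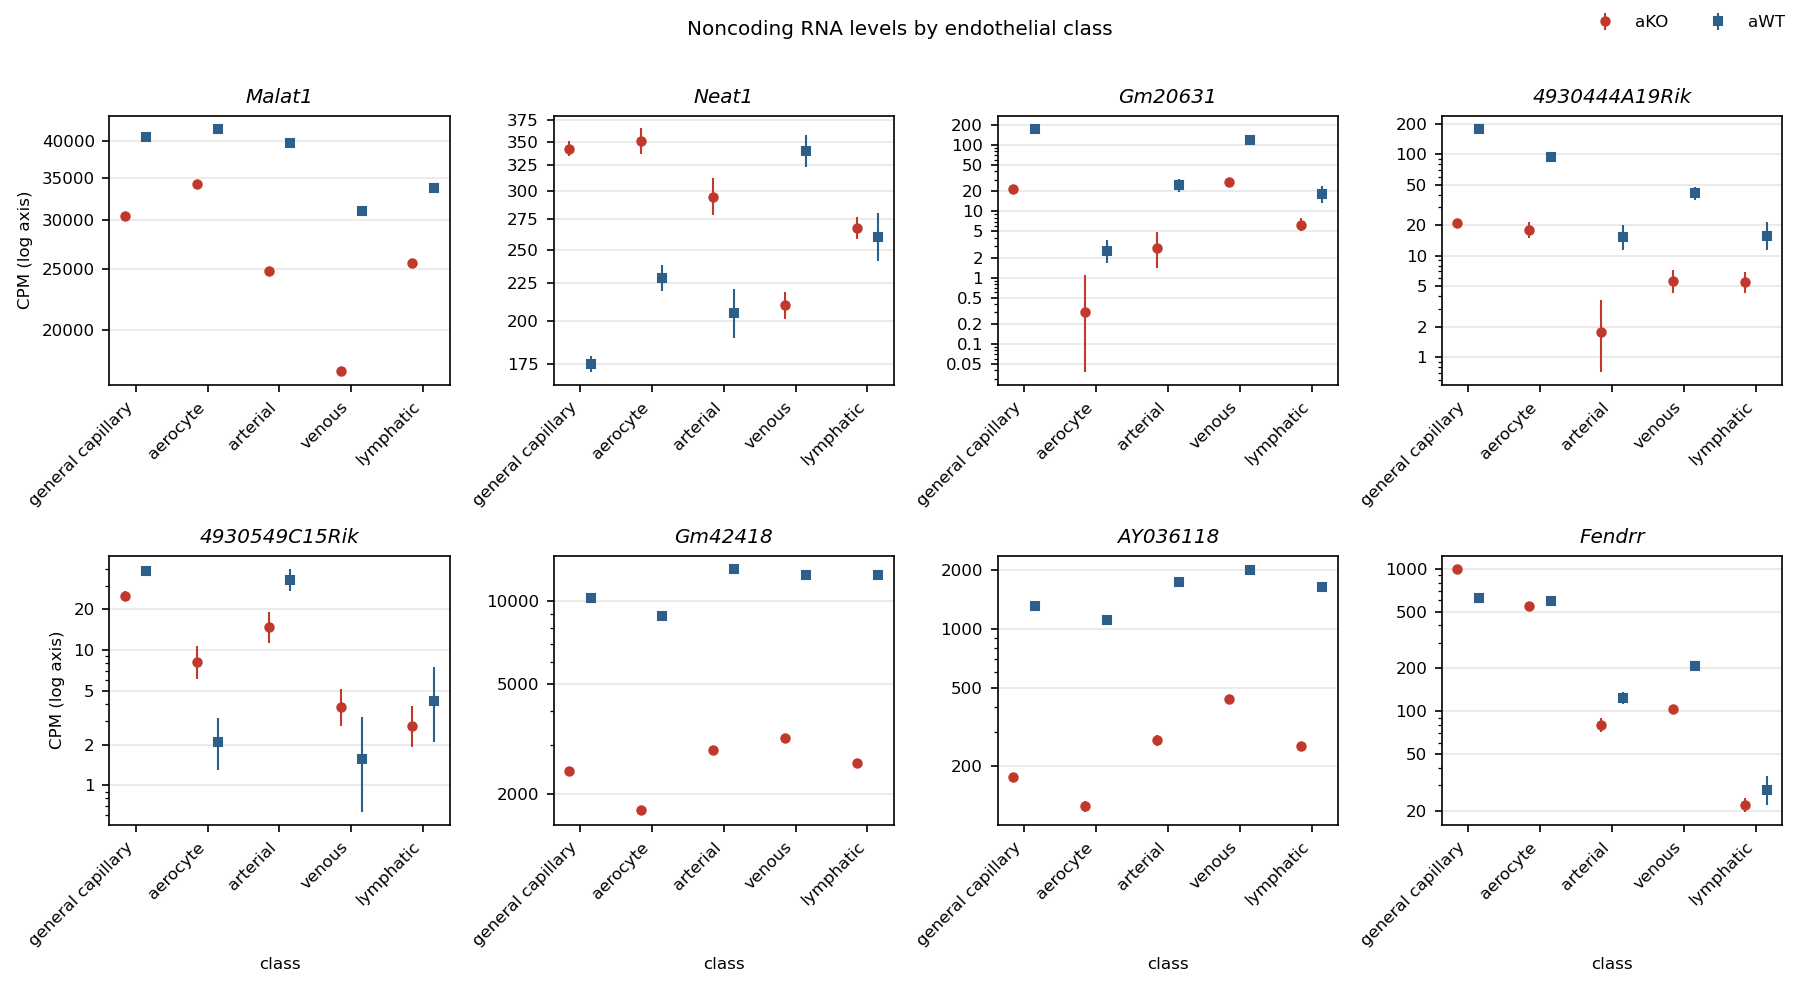
Level of each RNA (CPM, log axis) in 5 endothelial classes, aKO (red circles) left of aWT (blue squares), 1 library each; bars are exact 95% Poisson intervals for counting error. Gm42418 and AY036118 lay lower in aKO in each class, while Neat1 lay higher in aKO general capillary cells (343 against 175 CPM in aWT) and lower in aKO venous cells (210 against 340 CPM in aWT).

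The ribosomal-overlap RNAs stood lower in aKO in each of the 5 classes. Gm42418 was at 2685 CPM (2673 to 2698) in aKO and 10664 CPM (10638 to 10689) in aWT endothelial barcodes, 3.97-fold lower in aKO, with a log2 ratio of -1.99. AY036118 was at 253 CPM (249 to 257) in aKO and 1400 CPM (1391 to 1409) in aWT, with a log2 ratio of -2.44. Across classes the Gm42418 log2 ratio ran between -2.34 in aerocytes and -1.97 in venous cells, and that of AY036118 between -3.10 in aerocytes and -2.17 in venous cells. Within each library both were lowest in aerocytes (Gm42418 at 1744 CPM in aKO and 8844 CPM in aWT). AY036118 was highest in venous cells, at 439 CPM in aKO and 1996 CPM in aWT. Gm42418 was highest in venous cells of aKO (3177 CPM) and in arterial cells of aWT (13091 CPM), and its aWT lymphatic and venous levels overlapped within their intervals.

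The alveolar type 2 class, which is not endothelial, showed the same kind of gap for these RNAs. Gm42418 was at 2225 CPM in its 17 aKO barcodes and 11313 CPM in its 108 aWT barcodes, and AY036118 at 103 CPM in aKO and 665 CPM in aWT. The gap between libraries was therefore measured in a cell type outside the endothelium too, in few barcodes.

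The ratio of the overlapping RNAs to each other was not constant. Gm42418 had 10.6 UMIs per AY036118 UMI (10.5 to 10.8) in aKO and 7.62 (7.56 to 7.67) in aWT. Over the classes this ratio ran between 7.24 in venous and 14.0 in aerocyte cells of aKO, and between 6.22 in venous and 7.99 in aerocyte cells of aWT. By depth it fell in aKO from 28.7 in barcodes under 1000 UMIs, through 16.1 at 2000 to 4000 UMIs, to 8.72 over 16000 UMIs, while in aWT it stayed between 7.39 and 9.14 over the same bins. Within aKO general capillary barcodes it was 24.7 under 1000 UMIs and 17.6 at 2000 to 4000 UMIs. There it was lowest at 4000 to 8000 UMIs (11.5) and fell no further, at 12.8 over 16000 UMIs. How the counting divided reads between these overlapping annotations is not given in the sources used here, so the split is uncertain, and a ratio that differs between barcodes shows unequal change of the pair.

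Gm42418 also moved with mitochondrial share, and differently in the 2 libraries. Over the bins under 1%, 1 to 2%, 2 to 3%, 3 to 5%, 5 to 8% and 8 to 15%, it stood in aKO at 3176, 2323, 2468, 2845, 4493 and 5734 CPM, with its lowest value in the bin from 1 to 2%. In aWT it climbed over each of these bins, at 7574, 9015, 10743, 12788, 15522 and 18711 CPM. AY036118 stood in aKO at 211, 223, 272, 318, 343 and 233 CPM, climbing up to the bin from 5 to 8% and lower in the last. In aWT it climbed over each bin, from 951 to 1881 CPM. Within general capillary barcodes, AY036118 was near equal under 1% and at 3 to 5% in aKO (185 and 188 CPM). In aWT it was at 844 and 1557 CPM in those bins of the class. Barcodes over 15%, which the filter removed, held 6359 CPM of Gm42418 in aKO and 22632 CPM in aWT. The Spearman correlation of Gm42418 CPM with mitochondrial share over general capillary barcodes was -0.22 in aKO (4448 barcodes) and 0.37 in aWT (8774 barcodes), and over all endothelial barcodes -0.06 in aKO and 0.36 in aWT, where the points share a library and the total in their denominator.

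**Figure D2:**
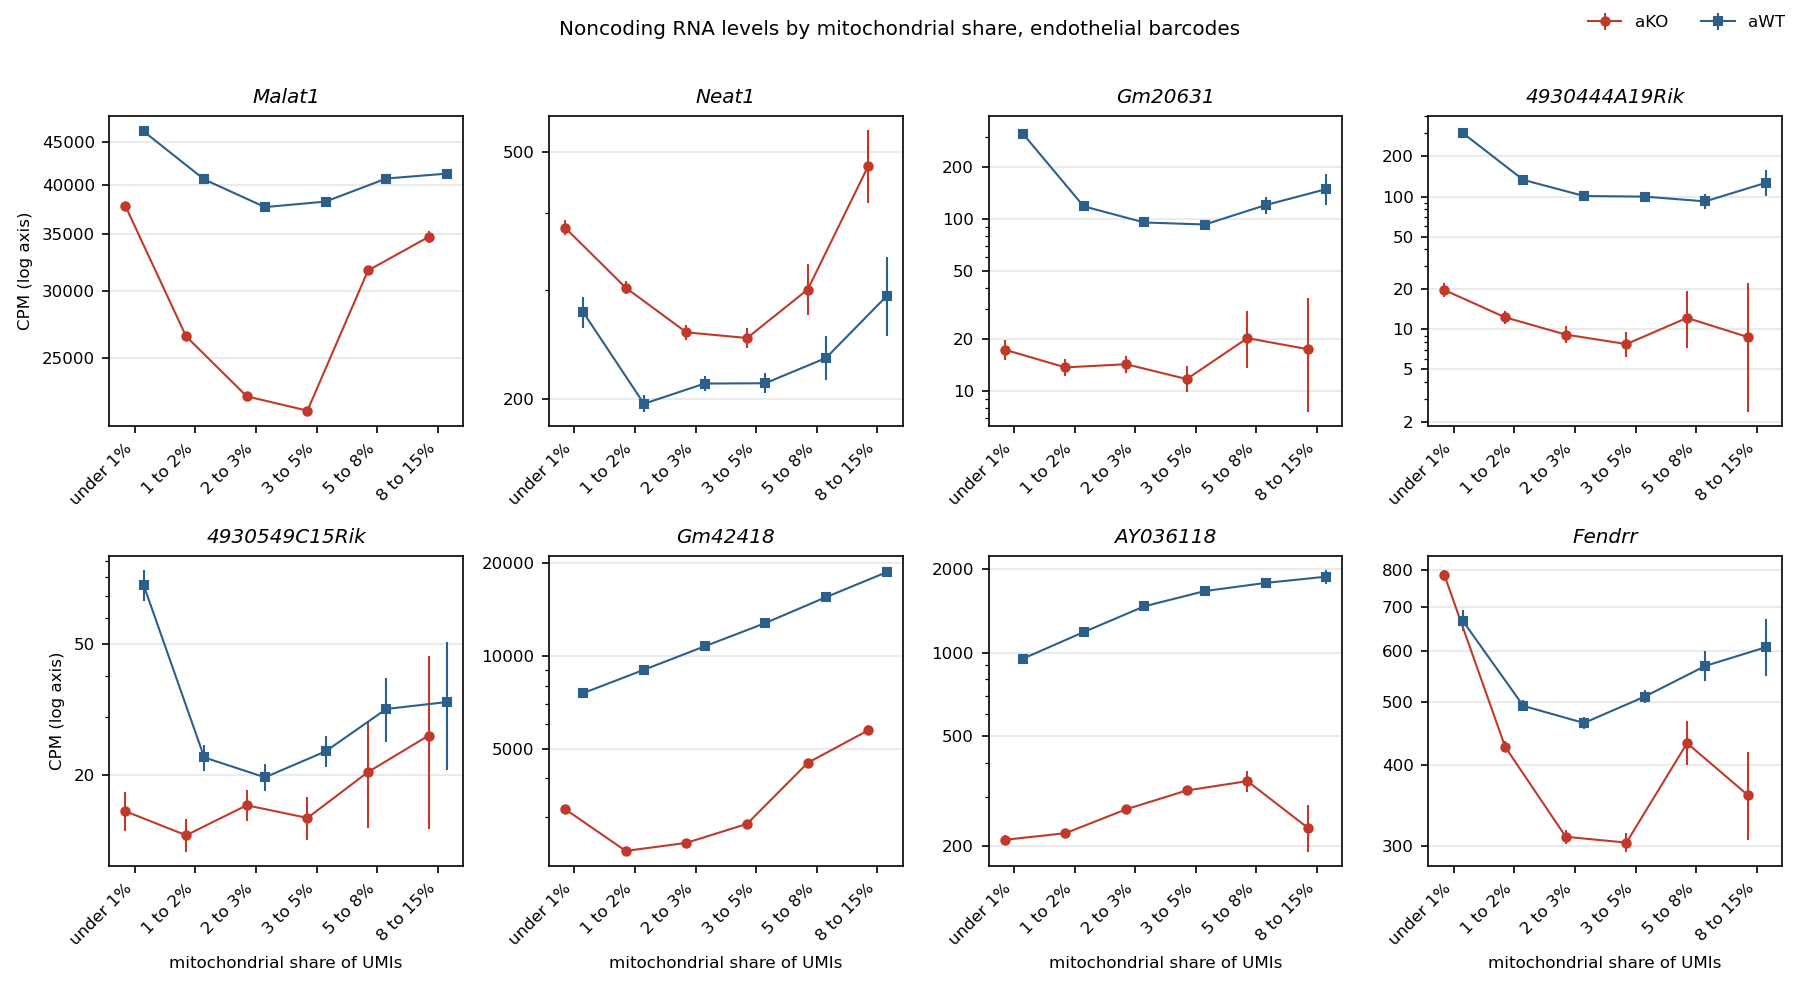
Level of each RNA (CPM, log axis) against mitochondrial share of UMIs in endothelial barcodes, aKO (red circles) and aWT (blue squares); bars are exact 95% Poisson intervals. In aKO, Malat1 and Fendrr are lower at 3 to 5% than under 1%, while in aWT Gm42418 climbs with the share and the antisense RNAs are highest under 1%.

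Depth bore on Gm42418 in aKO. Its level there was 12177 CPM under 1000 UMIs per barcode, 7320 CPM at 1000 to 2000, 3539 CPM at 2000 to 4000 and 2148 CPM at 4000 to 8000 UMIs. As UMIs per barcode, these bins held 10.2, 10.9, 10.7 and 12.7 Gm42418 UMIs. The count per barcode was thus nearly flat up to 8000 UMIs while the total grew. In aWT the count per barcode grew with the total, at 11.8, 18.3, 34.3 and 56.3 UMIs over the same bins, and the level fell from 14126 to 10460 CPM. At 8000 to 16000 UMIs the level was 2547 CPM in aKO and 10270 CPM in aWT. The aKO count per barcode therefore did not stay flat in deeper barcodes. At the shallowest depth the libraries therefore held similar numbers of Gm42418 UMIs per barcode, 10.2 in aKO and 11.8 in aWT.

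**Figure D3:**
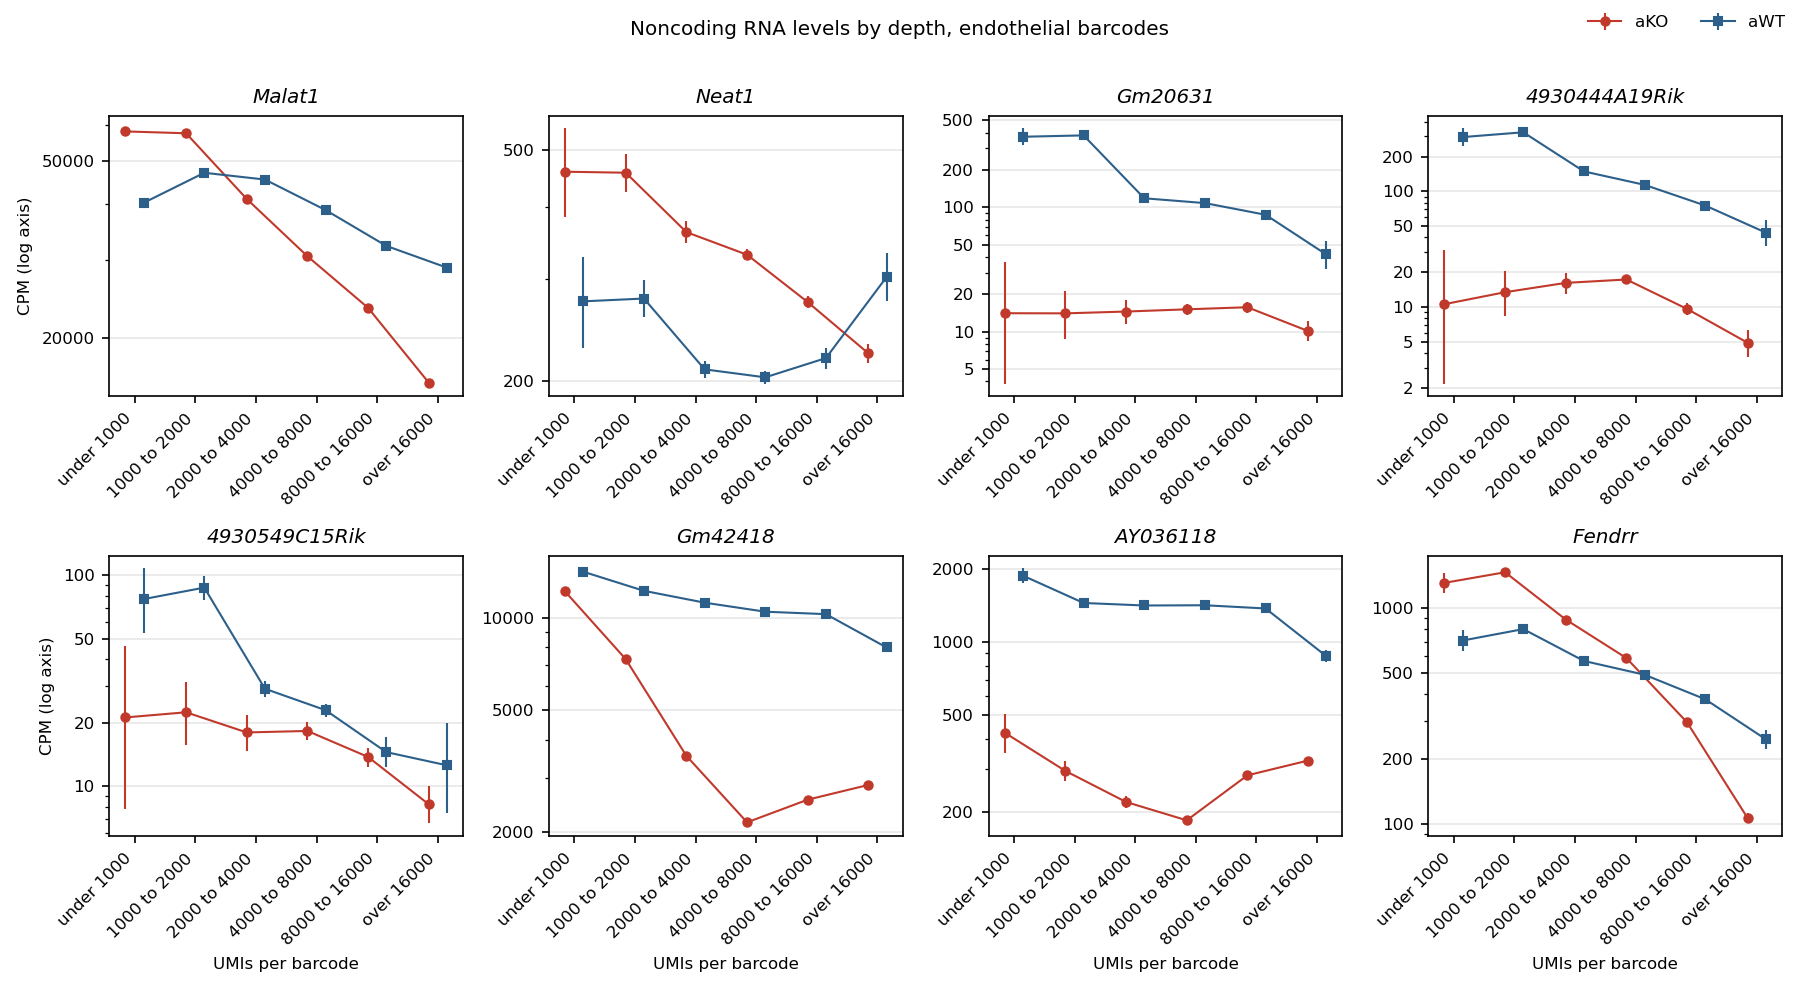
Level of each RNA (CPM, log axis) against UMIs per barcode in endothelial barcodes, aKO (red circles) and aWT (blue squares); bars are exact 95% Poisson intervals. The Gm42418 curves lie close together under 1000 UMIs (12177 CPM in aKO and 14126 CPM in aWT) and apart at 4000 to 8000 UMIs (2148 CPM in aKO and 10460 CPM in aWT).

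The antisense RNAs Gm20631 and 4930444A19Rik had the lowest ratios of the 8 RNAs over all endothelial barcodes, while in general capillary cells AY036118 (log2 ratio -2.86) lay below Gm20631 (-2.75) and 4930444A19Rik (-2.80). Gm20631 was at 14.5 CPM (1013 UMIs) in aKO and 119 CPM (7536 UMIs) in aWT endothelial barcodes, 8.22-fold lower in aKO, with a log2 ratio of -2.67. 4930444A19Rik was at 12.1 CPM (844 UMIs) in aKO and 125 CPM (7919 UMIs) in aWT, 10.4-fold lower, with a log2 ratio of -2.93. 4930549C15Rik differed less, at 14.9 CPM (1044 UMIs) in aKO and 26.0 CPM (1642 UMIs) in aWT, with a log2 ratio of -0.63. Whether the counting kept the strands apart is not given in the sources used here, so reads of an antisense RNA and of its host cannot be told apart with certainty.

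These RNAs had different class patterns. Gm20631 was at 21.9 CPM in aKO and 176 CPM in aWT general capillary cells, and at 27.8 CPM in aKO and 120 CPM in aWT venous cells. It was almost absent from aerocytes, with 2 UMIs (0.31 CPM) in aKO and 27 UMIs (2.56 CPM) in aWT. 4930444A19Rik was present in aerocytes, at 18.0 CPM in aKO and 93.1 CPM in aWT, beside 21.2 CPM in aKO and 177 CPM in aWT general capillary cells. In aKO its general capillary and aerocyte intervals overlapped, and in aWT they did not. 4930549C15Rik was at 25.1 CPM in aKO and 38.4 CPM in aWT general capillary cells, and at 14.8 CPM in aKO and 33.1 CPM in aWT arterial cells. In aerocytes it went the other way, with 8.14 CPM (53 UMIs) in aKO and 2.08 CPM (22 UMIs) in aWT.

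After each barcode was thinned to 2000 UMIs, 4.11% (3.49 to 4.81) of 3623 aKO and 21.5% (20.6 to 22.5) of 7296 aWT general capillary barcodes held a Gm20631 UMI. Unthinned, these shares were 8.66% in aKO and 34.9% in aWT. In aerocytes, thinned alike, 0 of 1016 aKO barcodes held one, which by the limit of 3 counts allows a share of up to 0.295%, and 0.50% (0.24 to 0.92) of 2005 aWT barcodes did. Aerocytes for Gm20631, and arterial cells for 4930444A19Rik, were the classes with the lowest level in both libraries. That the general capillary shares lay above theirs was thus given in advance. The level of free RNA was not measured. Before thinning, the median depth was 4686 UMIs in aKO and 3542 in aWT general capillary barcodes, and 5613 in aKO and 4614 in aWT aerocytes. For 4930444A19Rik the thinned shares of general capillary barcodes were 4.39% in aKO and 24.4% in aWT (8.84% and 38.0% unthinned), set beside 1 of 395 arterial barcodes (0.25%) in aKO and 2.94% of 545 in aWT. Thinning left out 825 aKO and 1478 aWT general capillary barcodes with fewer UMIs.

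Each antisense RNA had the gene it lies in as 1 of its 2 nearest genes over strata that mix class and mitochondrial share. Such strata do not show whether it followed that gene over mitochondrial share alone. In aWT, under 1% and at 3 to 5%, Rnf144a was at 358 and 360 CPM. There 4930549C15Rik was at 75.8 and 23.5 CPM. Hmcn1 (1948 and 1413 CPM) and Ankrd44 (1304 and 794 CPM) fell there as their antisense RNAs did, but less in proportion. Over 15 strata per library, formed by class and tertile of mitochondrial share, the gene most like Gm20631 among 6855 compared was its host Hmcn1, a hemicentin extracellular matrix gene (Pearson r 0.94 in aKO and 0.98 in aWT). The gene most like 4930549C15Rik was its host Rnf144a, an E3 ubiquitin ligase gene (r 0.95 in aKO and 0.94 in aWT), and Sema3g and Tax1bp1 came next. Ankrd44, an ankyrin repeat gene, ranked 2 for 4930444A19Rik (r 0.87 in aKO and 0.98 in aWT), after Numb and before St5. Over all endothelial barcodes the hosts were also lower in aKO: Hmcn1 at 527 CPM in aKO and 1443 CPM in aWT (log2 ratio -1.44), Ankrd44 at 149 CPM in aKO and 858 CPM in aWT (-2.48), and Rnf144a at 203 CPM in aKO and 310 CPM in aWT (-0.60). Rnf144a was higher in aKO in aerocytes (94.0 CPM in aKO and 43.7 CPM in aWT), the class where 4930549C15Rik was higher too. Hmcn1 was higher in aKO in lymphatic cells (290 CPM in aKO and 231 CPM in aWT), where Gm20631 was lower (6.32 CPM in aKO and 18.0 CPM in aWT).

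The number of antisense UMIs per host UMI also differed between the libraries. Gm20631 had 27.5 UMIs (25.8 to 29.2) per 1000 Hmcn1 UMIs in aKO and 82.5 (80.7 to 84.4) in aWT. 4930444A19Rik had 80.9 (75.5 to 86.5) per 1000 Ankrd44 UMIs in aKO and 146 (143 to 149) in aWT. 4930549C15Rik had 73.6 (69.2 to 78.2) per 1000 Rnf144a UMIs in aKO and 83.8 (79.8 to 88.0) in aWT. For Gm20631 the general capillary values were 30.1 in aKO and 85.6 in aWT, and the venous values 26.4 in aKO and 61.6 in aWT, so the lower ratio in aKO was measured within both classes. The 4930549C15Rik ratio was 78.4 in aKO and 89.6 in aWT general capillary cells, whose intervals overlapped, and went the other way in aerocytes (86.6 in aKO and 47.7 in aWT, with intervals that overlapped) and in venous cells (85.8 in aKO and 20.6 in aWT, on 41 aKO and 7 aWT UMIs).

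In aWT these ratios were higher under 1% mitochondrial share than at 3 to 5%, while in aKO the intervals of those bins overlapped for each of the 3. Under 1% and at 3 to 5%, Gm20631 UMIs per 1000 Hmcn1 UMIs were 29.1 and 23.5 in aKO and 160 and 65.8 in aWT. 4930444A19Rik UMIs per 1000 Ankrd44 UMIs were 92.3 and 67.5 in aKO and 231 and 126 in aWT. 4930549C15Rik UMIs per 1000 Rnf144a UMIs were 79.8 and 62.7 in aKO and 212 and 65.5 in aWT. Under 1%, the libraries thus lay far apart for each of the 3. At 3 to 5%, the 4930549C15Rik ratios of the libraries overlapped within their intervals (62.7 in aKO and 65.5 in aWT). Those of 4930444A19Rik overlapped at 5 to 8% (76.3 in aKO and 108 in aWT).

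**Figure D4:**
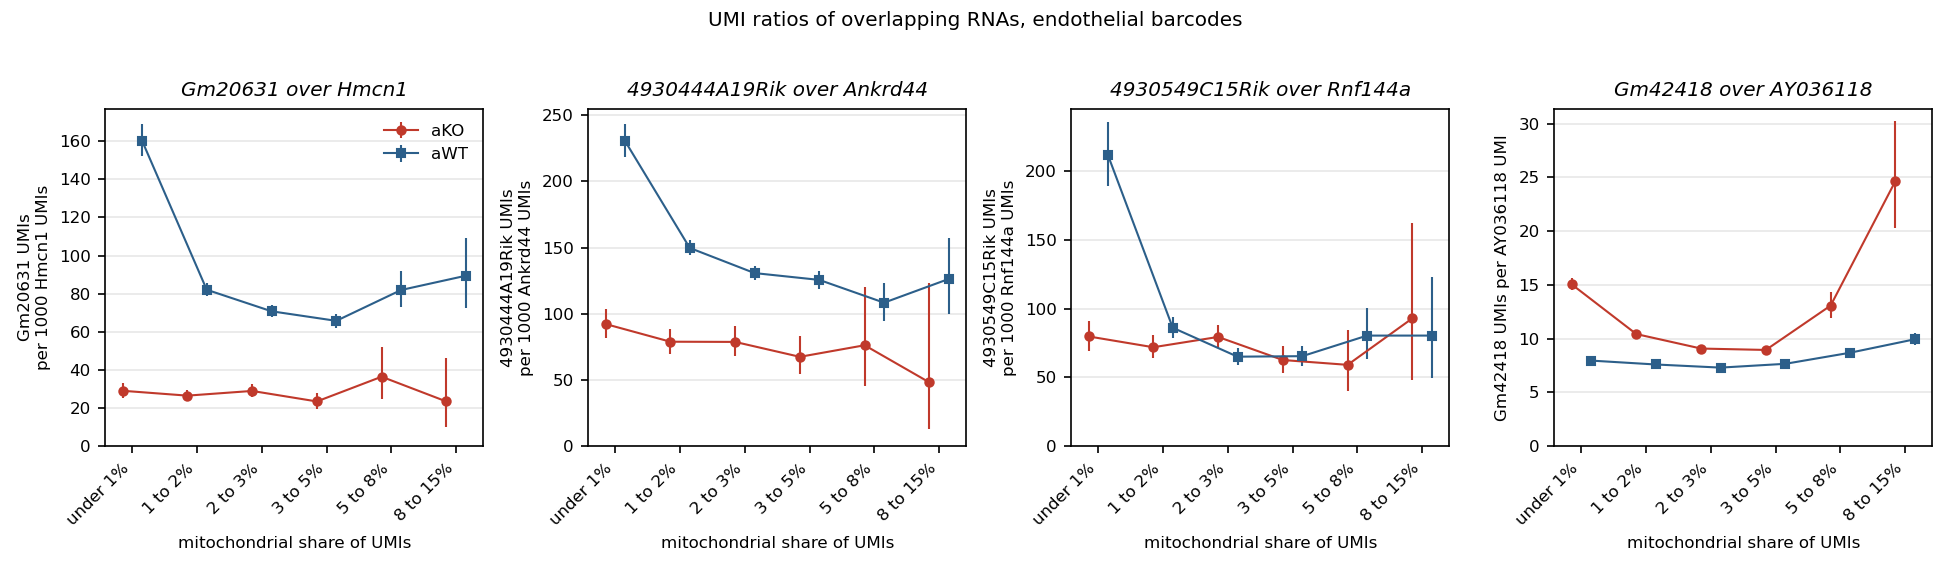
UMIs of each antisense RNA per 1000 UMIs of the gene it lies in (left 3 panels) and Gm42418 UMIs per AY036118 UMI (right panel) against mitochondrial share, endothelial barcodes, aKO (red circles) and aWT (blue squares); bars are exact 95% intervals. Under 1% the antisense ratios are 29.1, 92.3 and 79.8 in aKO and 160, 231 and 212 in aWT, where each is the highest of its aWT curve.

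The levels of the antisense RNAs were also highest under 1% in aWT. Under 1% and at 3 to 5%, Gm20631 was at 17.4 and 11.8 CPM in aKO and at 312 and 92.9 CPM in aWT. 4930444A19Rik was at 19.8 and 7.77 CPM in aKO and at 301 and 99.8 CPM in aWT, and 4930549C15Rik at 15.5 and 14.7 CPM in aKO and at 75.8 and 23.5 CPM in aWT. In aWT each was at least 2-fold higher under 1%, as were 1.94% of 4326 features, while in aKO the 3 lay under the 50 CPM needed for that count. Within aWT general capillary barcodes the values under 1% and at 3 to 5% were 444 and 114 CPM for Gm20631, 378 and 134 CPM for 4930444A19Rik and 110 and 30.0 CPM for 4930549C15Rik, against a background of 1.5%. The higher level under 1% was thus also measured within 1 class of aWT.

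By depth, the levels in aWT were also higher in shallow barcodes. At 1000 to 2000 and at 8000 to 16000 UMIs, Gm20631 was at 14.1 and 15.8 CPM in aKO and at 379 and 87.4 CPM in aWT. 4930444A19Rik was at 13.5 and 9.65 CPM in aKO and at 325 and 75.5 CPM in aWT, and 4930549C15Rik at 22.4 and 13.8 CPM in aKO and at 87.5 and 14.5 CPM in aWT. In aWT each was again at least 2-fold higher in the shallower bin, as were 1.95% of 4451 features, and likewise in aWT general capillary barcodes alone, where the background was 1.24%. The aKO barcodes of the same shallow and low-mitochondrial bins held lower levels of each of the 3 than the aWT barcodes did.

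In aWT each pair of antisense RNAs met in the same barcodes more often, with intervals apart. In aKO the intervals overlapped for each pair, on far fewer barcodes. Both RNAs of a pair were held by 7 to 9 barcodes in aKO, against 161 to 498 in aWT. The aKO counts are too small to show whether the pattern was absent there. Of thinned general capillary barcodes with a Gm20631 UMI, 6.04% (2.80 to 11.2) of 149 held 4930444A19Rik in aKO, against 4.32% (3.67 to 5.05) of those without, which overlap. In aWT 31.7% (29.4 to 34.1) of those with Gm20631 held it, against 22.4% (21.3 to 23.5) of those without. Barcodes with 0, 1 and 2 of the antisense RNAs had median mitochondrial shares of 1.56%, 1.58% and 1.78% in aKO, where 0 barcodes held 3. In aWT those with 0, 1, 2 and 3 had 2.48%, 2.20%, 1.79% and 1.32%.

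Malat1, the speckle RNA, took 2.69% of endothelial UMIs in aKO and 3.95% in aWT. Its level was 26898 CPM (26859 to 26936) in aKO and 39543 CPM (39494 to 39592) in aWT, a log2 ratio of -0.56. All 5 classes had less of it in aKO, with log2 ratios between -0.85 in venous cells (17190 CPM in aKO and 30985 CPM in aWT) and -0.29 in aerocytes. It was highest in aerocytes of both libraries, at 34240 CPM in aKO and 41910 CPM in aWT, and lowest in venous cells of both. Arterial cells (24829 CPM in aKO and 39705 CPM in aWT) ranked below lymphatic cells in aKO and above them in aWT.

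Malat1 fell with depth as a level and grew as a count. At 1000 to 2000, 4000 to 8000 and 8000 to 16000 UMIs per barcode it stood at 57611, 30562 and 23423 CPM in aKO and at 46993, 38774 and 32240 CPM in aWT. Per barcode these bins held 86.1, 180 and 251 Malat1 UMIs in aKO and 70.1, 209 and 328 in aWT. Under 2000 UMIs the level pooled over mitochondrial share was thus higher in aKO, and above that it was higher in aWT. At 1000 to 2000 UMIs the sign depended on that share. The log2 ratio there was 0.44 under 1%, and -0.09, -0.36 and -0.04 at 1 to 2%, 2 to 3% and 3 to 5%. The Spearman correlation of Malat1 CPM with UMIs per barcode in general capillary cells was -0.55 in aKO and -0.15 in aWT, a description in which depth is also the denominator. Between the bins at 1000 to 2000 and 8000 to 16000 UMIs, Malat1, Gm42418 and Fendrr were at least 2-fold higher in the shallower aKO bin, as were 7.47% of features, and so they were within aKO general capillary barcodes, where the background was 4.02%. By mitochondrial share, aKO Malat1 was at 37804 CPM under 1% and 21651 CPM at 3 to 5%, and aWT Malat1 at 46327 and 38266 CPM.

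Barcodes with no Malat1 UMI were rare and mostly in aKO. They numbered 66 of 10308 (0.64%, 0.50 to 0.81) in aKO and 6 of 14678 (0.041%, 0.015 to 0.089) in aWT. Of the 66, 26 were aerocytes, 2.39% (1.57 to 3.48) of that class, against 1 of 2179 aerocytes in aWT. The aKO barcodes without Malat1 had a median of 2853 UMIs and 3.49% mitochondrial share, so they were shallower than the aKO median, and they also held little Neat1 (5 UMIs, 26.5 CPM) and Fendrr (7 UMIs, 37.1 CPM). Gm42418 was at 2628 CPM in them, near the aKO endothelial level.

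Neat1, the paraspeckle RNA, was at 296 CPM (292 to 300) in aKO and 213 CPM (210 to 217) in aWT endothelial barcodes, a log2 ratio of 0.47. The size and sign depended on class. In general capillary cells it was at 343 CPM (335 to 350) in aKO and 175 CPM (170 to 179) in aWT, a log2 ratio of 0.95. In aerocytes it was at 351 CPM in aKO and 229 CPM in aWT, and in arterial cells at 295 CPM in aKO and 205 CPM in aWT. In lymphatic cells the intervals overlapped, at 268 CPM (259 to 277) in aKO and 260 CPM (241 to 281) in aWT. In venous cells it was lower in aKO, at 210 CPM against 340 CPM in aWT, with no overlap of intervals and a log2 ratio of -0.68.

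The order of classes for Neat1 was close to reversed between the libraries. In aKO it ran from aerocytes and general capillary cells, whose intervals overlapped, through arterial and lymphatic to venous cells. In aWT it ran from venous through lymphatic to aerocyte and arterial cells, whose intervals overlapped, and general capillary cells were lowest. Thinned to 2000 UMIs, 46.0% (44.4 to 47.7) of aKO and 27.5% (26.5 to 28.6) of aWT general capillary barcodes held a Neat1 UMI, and 34.2% (31.0 to 37.4) of aKO and 44.0% (40.3 to 47.8) of aWT venous barcodes did.

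Fendrr was a capillary RNA in both libraries, and its difference also depended on class. In general capillary cells it was at 1002 CPM (989 to 1015) in aKO and 627 CPM (618 to 635) in aWT, a log2 ratio of 0.67. In aerocytes it was at 548 CPM (530 to 566) in aKO and 597 CPM (582 to 612) in aWT. Venous cells had 104 CPM in aKO and 208 CPM in aWT (log2 ratio -0.97), arterial cells 80.3 CPM in aKO and 124 CPM in aWT (-0.59), and lymphatic cells 21.9 CPM in aKO and 28.0 CPM in aWT. General capillary cells were at least 2-fold above lymphatic, arterial and venous cells in both libraries, as were 13.1%, 10.7% and 10.1% of features in aKO and 13%, 8.94% and 7.51% in aWT. The order of the 5 classes was the same in both libraries, from general capillary through aerocyte, venous and arterial to lymphatic cells, with no overlap of intervals between neighbours. Over all endothelial barcodes the level was 442 CPM (437 to 447) in aKO and 503 CPM (498 to 509) in aWT. With equal weights for the 5 classes, which also leaves out the unresolved barcodes, the log2 ratio was 0.15. The sign of the Fendrr difference thus depended on how barcodes were pooled, and the reason was not tested.

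Foxf1, the capillary transcription factor gene beside Fendrr, followed this pattern in part. It was at 957 CPM in aKO and 668 CPM in aWT general capillary cells (log2 ratio 0.51), and at 343 CPM in aKO and 522 CPM in aWT venous cells (-0.60). In aerocytes, where Fendrr was lower in aKO, Foxf1 was at 958 CPM in aKO and 793 CPM in aWT (0.27), and in aWT this was above its general capillary level. In arterial cells, where Fendrr was lower in aKO too, the Foxf1 log2 ratio was 0.08. Over the strata, Foxf1 ranked 26 of 6855 for likeness to Fendrr (r 0.93 in aKO and 0.96 in aWT), behind Casz1, Adrb1 and Lrrc8d (r 0.98 to 0.99 in both). Fendrr had 801 UMIs (792 to 810) per 1000 Foxf1 UMIs in aKO and 846 (837 to 856) in aWT endothelial barcodes, and 1047 in aKO and 938 in aWT general capillary cells. Under 1% mitochondrial share these ratios were 1211 (1188 to 1234) in aKO and 1218 (1175 to 1263) in aWT, which overlap. At 3 to 5% they were 632 (611 to 654) in aKO and 949 (927 to 971) in aWT.

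By mitochondrial share Fendrr was at 784 CPM under 1% and 304 CPM at 3 to 5% in aKO, at least 2-fold apart as were 3.75% of features, and at 667 and 510 CPM in aWT. Within general capillary cells these bins held 1333 and 808 CPM in aKO, less than 2-fold apart, and 744 and 657 CPM in aWT. Fendrr fell with depth in both libraries, more in aKO. At 1000 to 2000 and at 8000 to 16000 UMIs it was at 1472 and 296 CPM in aKO and at 803 and 379 CPM in aWT. Class mix moved with depth, and within general capillary cells the same bins held 1956 and 820 CPM in aKO and 927 and 644 CPM in aWT. Thinned to 2000 UMIs, 77.4% (76.0 to 78.7) of aKO and 64.5% (63.4 to 65.6) of aWT general capillary barcodes held a Fendrr UMI, set beside 3.73% of aKO and 5.43% of aWT lymphatic barcodes.

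Because depth and mitochondrial share differed between the libraries, ratios were also taken within bins of both, using the 20 bins with at least 50 endothelial barcodes in each library. Gm20631, 4930444A19Rik and AY036118 were at least 2-fold lower in aKO in 20 of 20 bins, with median log2 ratios of -2.83, -2.67 and -2.37. Gm42418 was below 0 in 20 bins and at least 2-fold lower in 13 (median -1.90). The size of the Gm42418 difference depended on depth: over the 6 bins under 2000 UMIs its log2 ratio lay between -0.94 and -0.03, and over the 14 deeper bins between -2.45 and -0.74. In the bin under 1000 UMIs and under 1% mitochondrial share it was at 13465 CPM in aKO and 13736 CPM in aWT. AY036118 in the same 6 shallow bins lay between -2.77 and -1.73, so the pair parted there.

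**Figure D5:**
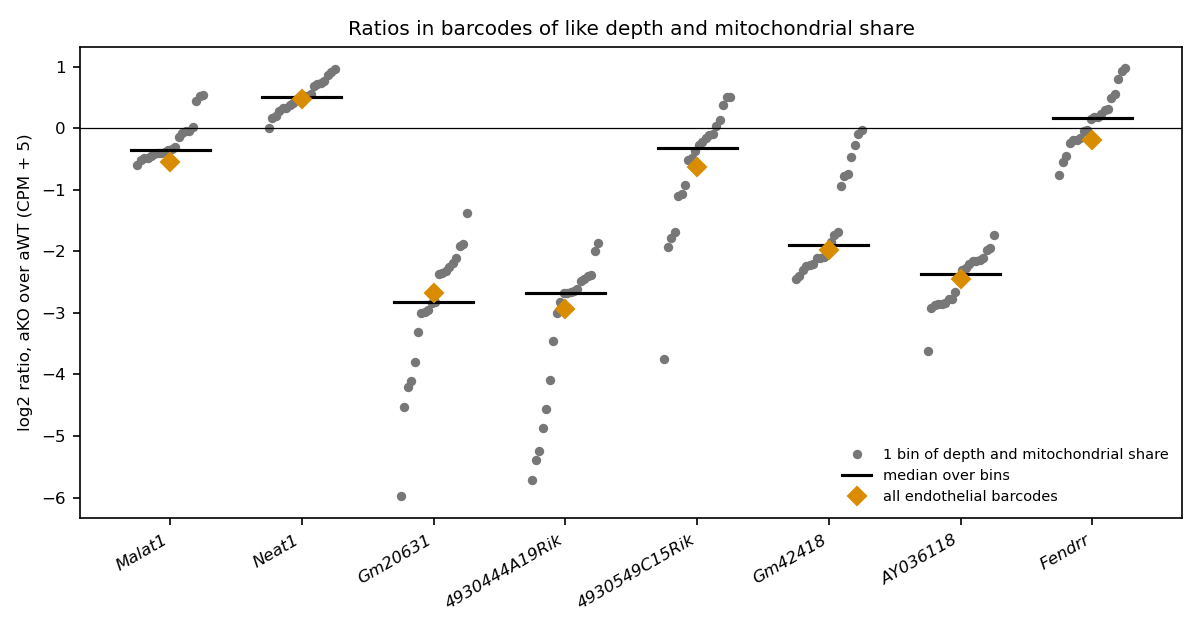
Log2 ratio, aKO over aWT, of each RNA within 20 bins of like depth and mitochondrial share (grey points, sorted), the median over bins (black line) and the ratio over all endothelial barcodes (orange diamond). Neat1 lies above 0 in 20 bins, Gm20631, 4930444A19Rik and AY036118 lie below -1 in 20, and Gm42418 reaches -0.03 in a shallow bin.

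Neat1 was above 0 in 20 of 20 bins (median 0.51) and in 15 of 15 bins of general capillary cells (median 0.90). Malat1 was below 0 in 16 of 20 bins (median -0.35), with log2 ratios up to 0.54 under 1000 UMIs. Fendrr was above 0 in 11 of 20 bins and in 15 of 15 bins of general capillary cells (median 0.59). 4930549C15Rik was below 0 in 15 of 20 bins (median -0.32, range -3.75 to 0.51). These bins share the same 2 libraries, so agreement among them is no replication.

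The spread among barcodes of 1 class also differed. In general capillary barcodes thinned to 2000 UMIs, Gm42418 had a median of 3 UMIs and a 90th percentile of 10 in aKO, against 18 and 36 in aWT. The tenth of barcodes with the most Gm42418 held 43.1% of its UMIs in aKO and 23.3% in aWT, and the variance was 13.5 times the mean in aKO and 7.21 times in aWT. Malat1 had a median of 58 UMIs in aKO and 80 in aWT, with 10th to 90th percentiles of 32 to 104 in aKO and 48 to 124 in aWT. Neat1 had a variance 1.22 times its mean in aKO and 1.21 times in aWT. Its mean was 0.67 UMIs in aKO and 0.35 in aWT, below the Gm42418 medians. At a given relative spread this multiple grows with the mean, so it does not rank the spread of Neat1 against that of Gm42418. Gm42418 and AY036118 were correlated over these barcodes (Spearman 0.25 over 4448 aKO and 0.50 over 8774 aWT barcodes, before thinning), values whose points share a library and the total in their denominator.

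Lists of related genes put these RNAs in context, counting members with at least 5 CPM in 1 library as higher or lower at 1.5-fold in endothelial barcodes. Over all 11228 such features, 11.7% were higher and 6.85% lower in aKO, with a median log2 ratio of 0.08. Of 16 genes for paraspeckle proteins, which bind Neat1, 0 were higher and 0 lower (median 0.06), with the highest value 0.48 for Hnrnpa1 and the lowest -0.25 for Hnrnph1. Of 20 genes for nuclear speckle and splicing factors, 0 were higher and 0 lower (median -0.06), between 0.46 for Srsf2 and -0.53 for the splicing kinase gene Clk1. Of 20 measured other long noncoding RNAs, 3 were higher and 0 lower (median 0.14): Pvt1 at 19.6 CPM in aKO and 2.83 CPM in aWT, Snhg12, a snoRNA host, at 29.5 CPM in aKO and 13.8 CPM in aWT, and Mir22hg, a microRNA host, at 22.8 CPM in aKO and 11.3 CPM in aWT. Kcnq1ot1, an imprinted antisense RNA, was the lowest of them (-0.58). In general capillary cells, of 18 measured, 0 were higher and 1 lower (backgrounds 8.13% and 5.99%). The lower RNA there was Mir99ahg, at 41.3 CPM in aKO and 127 CPM in aWT.

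Genes often listed with ribosomal overlap in mouse 3′ data lay low as a list, as did the stress genes described below. Of 11 measured, 6 were lower and 1 higher in aKO (median -0.62). Cmss1 was at 314 CPM in aKO and 1643 CPM in aWT (log2 ratio -2.37), Camk1d at 136 CPM in aKO and 399 CPM in aWT (-1.52) and Lars2, a mitochondrial leucyl-tRNA synthetase gene, at 112 CPM in aKO and 289 CPM in aWT (-1.33). Camk1d and Cmss1 also ranked 1 and 3 for likeness to Gm42418 over the strata (r 0.78 and 0.73 in aKO, 0.92 and 0.89 in aWT), with AY036118 between them. The genes most like AY036118 were Fn1, Pfdn1 and Rpl27, and Gm42418 ranked 49 for it. Gm26917, whose annotation ends 616 bases before Gm42418 on the same strand, went the other way, at 118 CPM in aKO and 72.6 CPM in aWT (0.66). Within classes the number lower, of 11, was 6 in general capillary cells (background 5.99%), 6 in aerocytes (4.99%), 7 in arterial cells (9.75%), 8 in venous cells (8.4%) and 7 in the lymphatic class (5.9%).

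Genes that make and process ribosomal RNA did not lie low with Gm42418. Of 20, 1 was higher (Nhp2, a snoRNP protein gene, at 35.3 CPM in aKO and 18.1 CPM in aWT) and 0 lower (median 0.33), and the polymerase I factor gene Ubtf was at 71.4 CPM in aKO and 70.2 CPM in aWT. Of 20 cytosolic ribosomal protein genes, 17 were higher and 0 lower (median 0.72), led by Rps18 (1.15), but in general capillary cells 1 was higher (background 8.13%). Of 10 measured Fendrr neighbours and partners, 2 were higher and 0 lower (median 0.07): Foxc2, a forkhead gene of the same cluster, at 12.4 CPM in aKO and 3.57 CPM in aWT, and Irf8 at 15.1 CPM in aKO and 6.01 CPM in aWT. In general capillary cells 8 of the list were measured, and 0 were higher and 0 lower. Foxc2 and Irf8 did not reach 5 CPM in that class. The part of class mix in their pooled values was not tested. Suz12, of the chromatin complex PRC2 that Fendrr is reported to bind, had a log2 ratio of -0.31. Of 21 immediate early and dissociation stress genes, 0 were higher and 8 lower (median -0.50), led by the heat shock gene Hspa1a at 543 CPM in aKO and 2254 CPM in aWT. Of 13 mitochondrially encoded genes, 0 were higher and 1 lower (mt-Nd6, log2 ratio -1.11). The stress genes moved with the library as the ribosomal-overlap RNAs did, and their part in the levels of the 8 RNAs was not tested.

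For the remaining likeness by strata, Ppp1r13b, Mcmbp and Fgfr2 were nearest to Malat1 (mean r 0.86 to 0.90) and Tbc1d8, Lmbr1 and Ercc5 to Neat1, where the likeness was weak (mean r 0.59 to 0.64). Sik3 and Stard4 followed Hmcn1 for Gm20631. The strata of 1 library share its depth and handling, and no shared function or control is read from them.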

How the data were processed

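The authors deposited UMI counts per feature and barcode as 1 matrix per library, made with Cell Ranger 7.2.0 and mm10 per the submitters' processing notes. The sources used here do not give the annotation release, intron counting or the use of strand. 

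The counts were analysed as deposited. Barcodes with fewer than 500 genes or over 15% mitochondrial UMIs were removed, as were Scrublet doublet calls (scanpy 1.11.5; 370 or 3.43% of aKO and 787 or 5.03% of aWT barcodes, below the loading rates of 8.84% and 12.8%). Classes were set by marker UMIs, counts were summed by class or bin, and CPM took all features as the total. A difference was counted at 2-fold among features of at least 50 CPM in 1 group, and for lists at 1.5-fold and 5 CPM. Shares used barcodes thinned to 2000 UMIs (seed 7). Intervals are exact Poisson for levels and Clopper-Pearson for shares and ratios, at 95%. Each group is 1 library, so no replicate check and no p-value were possible. Library totals were 75950364 UMIs for aKO and 72270260 for aWT. The spread between replicates was not measured.

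The 8 RNAs, the marker lists and the gene lists were chosen with earlier results of these data known. The genes named were the 8, their overlapping or neighbouring genes, up to 3 extremes at each end of each list, and the 3 genes most like each RNA by Pearson r of log2(CPM + 5) over strata, among genes of at least 20 CPM in at least 50% of strata. Coordinates and sequences came from GENCODE M21 on mm10. The 2-fold size rule and the totals after thinning were checked on simulated counts, and the other calculations were not. Python 3.11.15, numpy 2.4.6, scipy 1.17.1, pandas 2.3.3, matplotlib 3.10.9 and edgeR 4.0.16 (TMM factors) were used. Alternatives changed the added CPM, the totals, the class mix, the class rule, the filters, depth, mitochondrial share, doublet removal and thinning.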

Additional observations from a re-analysis of the deposited data

Results flagged for a closer look

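Neat1, Fendrr and 4930549C15Rik each lay higher in aKO in 1 endothelial class and lower in another, and none of these differences between classes was tested, since each group is 1 library. For Neat1 the log2 ratio of aKO over aWT was 0.95 in general capillary cells and -0.68 in venous cells. For Fendrr it was 0.67 in general capillary cells and -0.97 in venous cells. For 4930549C15Rik it was 0.89 in aerocytes, on 53 aKO and 22 aWT UMIs, and -0.94 in arterial cells, on 59 aKO and 108 aWT UMIs.

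Barcodes with under 500 genes, which the main comparisons left out, still carried these RNAs. Malat1 stood at 35606 CPM in aKO and 24530 CPM in aWT, and Fendrr at 771 CPM in aKO and 410 CPM in aWT. These barcodes were taken with no rule on class, mitochondrial share or doublets.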

How the results depend on the processing

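Of the 19 alternatives run for each RNA, 4930444A19Rik (log2 ratio -3.27 to -2.18), Gm20631 (-3.00 to -2.01), AY036118 (-2.86 to -2.38) and Gm42418 (-2.15 to -1.69) were at least 2-fold lower in aKO in 19. Malat1 (-0.74 to -0.30) and 4930549C15Rik (-0.85 to -0.29) were below 0 and Neat1 (0.22 to 0.95) above 0 in 19. Fendrr (-0.70 to 0.67) was below 0 in 12 and above 0 in 7. The alternatives without barcodes holding an alveolar type 2 UMI and without the lymphatic class were chosen after seeing the data, and the second put Fendrr at 0.03. Over all features, 210 were at least 2-fold higher and 149 lower in aKO. Equal class weights gave 83 higher and 100 lower, and 78 higher with classes by number of markers. A minimum of 10 CPM gave 448 higher and 248 lower, no minimum 472 and 278, and 200 CPM 76 and 88, where 2 of the 8 RNAs were lower in place of 4, since Gm20631 and 4930444A19Rik lie under that level. The cause of the changes with class weights was not tested. No paired analysis was possible because each group is 1 library, and no replicate could be left out. In aKO aerocytes the Gm20631 level rests on 2 UMIs.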

Other observations

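The mitochondrially encoded genes and the stress genes differed between libraries within general capillary cells as well. Of 13 mitochondrially encoded genes, 0 were at least 1.5-fold higher and 4 lower in aKO (median log2 ratio -0.44), and of 21 immediate early and dissociation stress genes, 0 were higher and 10 lower (median -0.46). Gm26917, which lies beside the ribosomal-overlap pair, was at 254 CPM under 1% mitochondrial share and 81.8 CPM at 3 to 5% in aKO, against 87.8 and 86.4 CPM in the same aWT bins. The 6 aWT barcodes with no Malat1 UMI held 27595 CPM of Gm42418, on 231 UMIs, at a median of 5.91% mitochondrial share.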
